A study of Rattus norvegicus with 32 samples.

Results

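The genes described here are the E2F transcription factors and the G1/S cyclins and kinases of C6 cells, a rat glioma line, after exposure to Angiotensin II (Ang II). They were chosen by name: probes for transcripts whose gene name in the scanner output equals E2f1, E2f2, E2f3, E2f7, E2f8, Ccnd1, Ccne1, Ccne2, Cdk2 or Cdk4. Of these 10 genes, 9 had a probe under that name (11 probes) among the 26583 gene names of the array, and E2f2 had none, so it was not analysed here. After the filter on dim probes, 7 of them were tested at 3 h (E2f7 and Ccne2 were too dim) among 13630 genes, and 9 at 6 h among 16446 genes.

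RNA from C6 cells was hybridized to 32 one-colour Agilent arrays in 8 groups of 4. All cells grew to confluence in medium with serum, which the untreated Control groups shared. At 3 h and at 6 h there was a Control group, a group given 100 nM Ang II (Ang II), a group given 10 µM Losartan, an antagonist of the AT1 receptor, for 30 min and then Ang II (Ang II+Los), and a group given 10 µM PD123319, an antagonist of the AT2 receptor, for 30 min and then Ang II (Ang II+PD123319). No group received an antagonist without Ang II, so an effect of Losartan or PD123319 on its own was not measured. The model is 1 cell line, and where nothing states that the replicates came from separate cultures, p-values describe the spread between these arrays. Of the 8 glial markers examined, S100b, Vim, Nes, Cspg4 and Cnp were measured at both times, while Slc1a3 and Olig2 were well above background on 0 arrays and Gfap on at most 2 of 16. The probes of Agtr1a, Agtr1b and Agtr2, the receptors the antagonists block, were well above background on 0 of 16 arrays at either time. A dim probe does not show that a transcript is absent, and the paper measured both receptor types by quantitative PCR.

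E2F proteins bind the promoters of genes needed for DNA replication. In quiescent or early G1 cells they are held by pocket proteins such as Rb. Cyclin D1 with Cdk4, and then cyclin E with Cdk2, phosphorylate Rb and release E2F, and E2F in turn raises the transcription of cyclin E and of several E2F genes. E2f1, E2f2 and E2f3 are the activating members of the family. E2f7 and E2f8 are atypical members that act as repressors and are themselves induced by E2F late in G1 and in S phase.

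The measurement of each gene rests on short probes, and the letters below are those printed on the array, shown for 6 of the members so that a reader can see what was measured. Each is 60 bases, written 5′ to 3′ in lower case, with rn4 coordinates from the scanner output. In the E2f1 probe the capitals mark a stop codon, with 57 bases before it.
E2f1, A_64_P083958, chr3:145033680-145033739, minus strand: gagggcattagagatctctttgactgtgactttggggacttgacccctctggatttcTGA
E2f3, A_44_P1010528, chr17:41145645-41145704, plus strand: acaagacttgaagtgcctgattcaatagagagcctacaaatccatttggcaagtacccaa
E2f3, A_44_P508733, chr17:41144019-41145375, plus strand: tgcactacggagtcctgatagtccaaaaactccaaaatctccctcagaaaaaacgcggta
E2f8, A_64_P112034, chr1:98641028-98641087, minus strand: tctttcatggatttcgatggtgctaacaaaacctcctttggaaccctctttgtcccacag
Ccnd1, A_64_P155393, chr1:205361630-205361689, minus strand: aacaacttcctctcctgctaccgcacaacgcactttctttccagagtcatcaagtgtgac
Ccne2, A_44_P272210, chr5:25039349-25040889, plus strand: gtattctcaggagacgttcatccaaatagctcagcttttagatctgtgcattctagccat
Cdk4, A_44_P388782, chr7:67017293-67017352, plus strand: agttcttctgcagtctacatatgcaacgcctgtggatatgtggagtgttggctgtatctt
The second E2f3 probe and the Ccne2 probe cover 1357 and 1541 bases of the genome with 60 letters, so each is split by sequence that is absent from the transcript. E2f7 was read by A_64_P037333 at chr7:49748927-49748986, Ccne1 by A_44_P507571 at chr1:90568197-90568256, Cdk2 by A_42_P785419 at chr7:2000436-2000495, and E2f1 by a second probe, A_64_P151719, at chr3:145032731-145032790, downstream of the stop codon shown above. Cdk2 was printed in 10 spots of every array, and the SD of those spots within an array was 0.0598 to 0.160 log2 units at 3 h and 0.0382 to 0.0901 at 6 h. No member had a saturated spot.

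Each slide held 1 array of each of the 4 groups of a time, and the replicate number is the slide. Groups always sat in the same position of a slide, so position and treatment cannot be told apart. Between slides the signals differed more than between treatments. At 3 h the E2f1 signal in Control cells ran from 6.69 to 8.90 on the log2 scale, so comparisons were made within slides. The share of spots well above background was 55.9% to 64.7% at 3 h and 64.2% to 79.8% at 6 h, under different background settings of the extraction software, and levels are therefore not compared between the times. The array of Ang II replicate 2 at 3 h was the brightest of that time, with a 75th percentile of 10.23 log2 units before normalization against 9.25 for Control on the same slide, and results are given with and without that slide where it matters.

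A gene is called past the limits below when the unadjusted p of limma's moderated test, with the slide as a block, was under 0.05 and the fold change was above 1.2 or below 0.8. Adjusted p-values are Benjamini-Hochberg values over all genes tested. Fold changes are on the log2 scale with their SE. A value of 0.263 corresponds to the upper fold limit and -0.32 to the lower one.

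Ang II x Control asks which genes changed when both receptor types could respond to the peptide. The E2F factor E2f8 and the activator E2f1 rose past the limits at both times, cyclin E1 at 3 h, and cyclin E2 and Cdk2 at 6 h, while cyclin D1, Cdk4, E2f3 and E2f7 did not pass in this comparison. At 3 h 3 of the 7 members tested were past the limits, all higher, beside 11.0% of all genes tested. Under a stricter filter asking for signal on all 16 arrays, which leaves out E2f8, 2 of 6 passed, beside 10.8% of genes. At 6 h 4 of 9 were past the limits, all higher, beside 11.4% of all genes. The median log2 fold change of the members was 0.20 at 3 h and 0.17 at 6 h, and that of all genes was 0.0014 and -0.0060. No member reached an adjusted p under 0.05 in this comparison, nor did any other gene by limma, while 1732 genes at 3 h and 3535 at 6 h had an unadjusted p under 0.05. The lowest adjusted p of a member was 0.322 at 3 h and 0.0582 at 6 h. The count at 3 h was 3, 1, 1 and 0 without the slide of replicate 1, 2, 3 and 4, and at 6 h it was 4, 2, 5 and 2. Without the slide as a block it was 0 at both times.

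E2f1, the founding activator of the family, read 8.90, 7.74, 6.69 and 8.13 log2 signal in Control replicates 1 to 4 at 3 h, and 8.95, 8.29, 6.92 and 8.52 in Ang II. Ang II was above Control on all 4 slides, by 0.04, 0.55, 0.23 and 0.39, although the groups overlap when slides are ignored. The fitted log2 fold change was 0.30 ± 0.12 (SE, adjusted p = 0.351 by limma), and without the slide of replicate 2, 3 or 4 it was 0.22, 0.33 and 0.27, not past the limits. At 6 h Control arrays read 9.14, 8.06, 9.31 and 8.30 and Ang II arrays 9.19, 8.91, 9.32 and 9.13. The gap was wide on the slides of replicates 2 and 4, at 0.85 and 0.82, where Control was low, and narrow on those of replicates 1 and 3, at 0.06 and 0.01. The fitted log2 fold change at 6 h was 0.43 ± 0.14 (adjusted p = 0.137), and it was 0.30 without the slide of replicate 2 and 0.30 without that of replicate 4, no longer past the limits. At 3 h the probe that ends in the stop codon gave 0.39 ± 0.11 and the downstream probe 0.21 ± 0.13. At 6 h they gave 0.46 ± 0.14 and 0.41 ± 0.16, so that at 3 h the downstream probe alone was not past the limits. With the normexp background correction the 3 h value fell to 0.17.

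E2f3, the other measured activator, lay between 6.28 and 6.45 log2 signal in Control at 3 h and between 6.28 and 7.05 in Ang II. The slide differences were -0.08, 0.05, 0.12 and 0.60, the last from replicate 4. Fitted values were 0.17 ± 0.12 on the log2 scale at 3 h (adjusted p = 0.526) and 0.08 ± 0.08 at 6 h (adjusted p = 0.621). The 95% intervals, -0.09 to 0.43 and -0.10 to 0.26, hold 0. The 2 probes differed at 6 h: A_44_P1010528 gave 0.18 ± 0.08 and the split probe -0.03 ± 0.11, neither past the limits.

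E2f8, an atypical repressor, gave the clearest difference among the E2F factors. At 3 h Control arrays read 7.93, 6.01, 3.89 and 6.15 log2 signal and Ang II arrays 7.79, 6.79, 4.58 and 6.92. The difference was -0.14 on the slide of replicate 1 and 0.78, 0.68 and 0.77 on the others. Its fitted log2 fold change was 0.52 ± 0.19 (adjusted p = 0.341). Without the slide of replicate 2, 3 or 4 it was 0.44, 0.47 and 0.44, not past the limits, and without that of replicate 1 it was 0.74. Signal well above background was found on 14 of 16 arrays, with Control and Ang II+Los of replicate 3 as the exceptions, and normexp correction lowered the value to 0.16. The filter kept E2f8 at 3 h only through the Ang II and Ang II+PD123319 groups, where all 4 arrays were well above background. At 6 h all 16 arrays gave such a signal. Control then read 7.81, 6.62, 7.92 and 6.52, and Ang II 8.38, 7.22, 8.39 and 7.36. Ang II was higher by 0.57, 0.60, 0.47 and 0.84, on every slide. The log2 fold change at 6 h was 0.62 ± 0.11 (adjusted p = 0.0582), or 1.54-fold. It stayed past the limits without any one slide, at 0.55 to 0.67.

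E2f7, the second atypical repressor, was measured at 6 h only. Control arrays read 5.38, 5.15, 5.08 and 4.51 log2 signal and Ang II arrays 5.10, 5.10, 5.09 and 4.50, which overlap. The fitted difference was -0.08 ± 0.08 log2 units (adjusted p = 0.574), which did not pass. At 3 h E2f7 signal stood well above background on 3 of 4 Control arrays and 2 of 4 Ang II arrays. Without the filter its log2 fold change at 3 h was -0.74 ± 0.26 (adjusted p = 0.393), a value that rests on signals near the background.

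**Figure D1:**
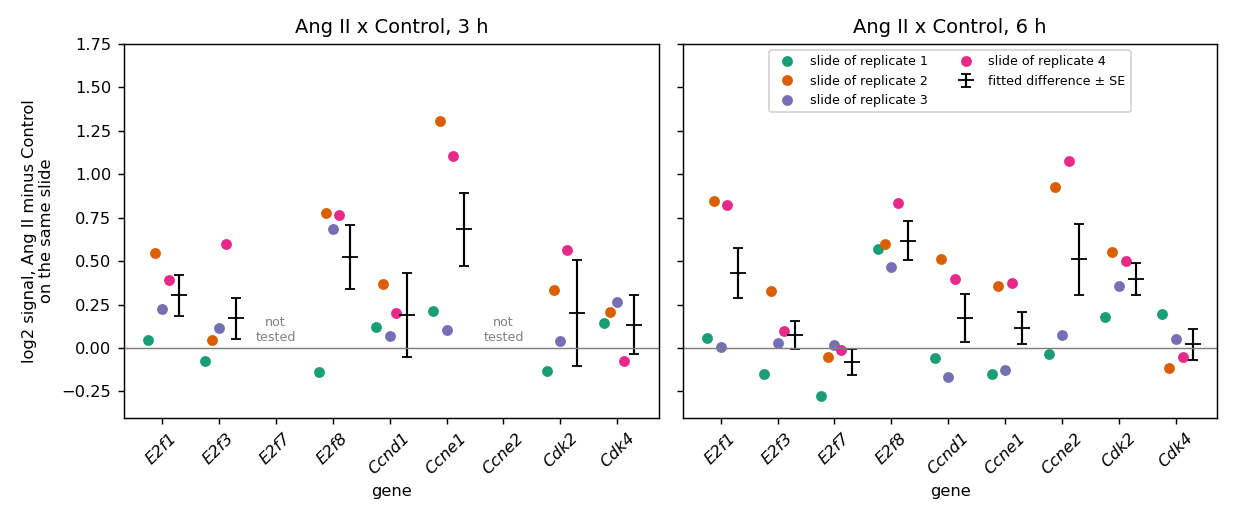
Difference in normalized log2 signal between Ang II and Control on each of the 4 slides of a time (points, y axis) for each gene (x axis), with the fitted difference ± SE (black). E2f8 at 6 h lies between 0.47 and 0.84 on all 4 slides, while E2f1 and Ccne2 at 6 h separate into slides of replicates 2 and 4 with wide gaps and slides of replicates 1 and 3 near 0.

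Cyclin D1 (Ccnd1), which carries growth signals to Cdk4, read 12.11, 11.54, 11.44 and 12.47 log2 signal in Control at 3 h and 12.23, 11.91, 11.50 and 12.67 in Ang II. All 4 slides pointed up, by 0.07 to 0.37, but the log2 fold change of 0.19 ± 0.24 (adjusted p = 0.749) was within the spread of the fit. At 6 h it was 0.17 ± 0.14 (adjusted p = 0.489), with differences of -0.05, 0.52, -0.17 and 0.40. Its partner kinase Cdk4 gave 0.13 ± 0.17 at 3 h and 0.02 ± 0.09 at 6 h (adjusted p = 0.744 and 0.914). At 6 h the 95% interval of Cdk4 ran from -0.17 to 0.21, so that a rise as large as that of E2f8 lies outside it.

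Cyclin E1 (Ccne1), the activator of Cdk2 at the G1/S boundary, rose past the limits at 3 h. Control arrays read 10.59, 9.20, 9.05 and 9.59 log2 signal and Ang II arrays 10.80, 10.50, 9.15 and 10.70. The differences were 0.22, 1.30, 0.10 and 1.11, positive on every slide and widest on those of replicates 2 and 4. This gave a log2 fold change of 0.68 ± 0.21 (adjusted p = 0.322, 1.61-fold), and of 0.48 without the slide of replicate 2. It was 0.54 and not past the limits without that of replicate 4. At 6 h the log2 fold change was 0.11 ± 0.09 (adjusted p = 0.504), with differences of -0.15, 0.36, -0.13 and 0.37.

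Cyclin E2 (Ccne2), the paralogue with the same kinase partner, was tested at 6 h only. Control arrays read 6.79, 4.48, 6.19 and 5.77 log2 signal and Ang II arrays 6.76, 5.41, 6.27 and 6.84. As for E2f1, the difference was wide on the slides of replicates 2 and 4, at 0.93 and 1.07, and -0.04 and 0.08 on the others. Fitted over slides, the change was 0.51 ± 0.20 (adjusted p = 0.188), and 0.37 and 0.32 without either of the former slides, not past the limits. At 3 h its signal stood well above background on 1 of 4 Control arrays and on 3 of 4 arrays in each other group. The unfiltered log2 fold change there, 1.43 ± 0.46 (adjusted p = 0.386), includes Control signals from 0.75 to 6.21 and was not part of the counts above.

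Cdk2, the kinase of both E cyclins, rose past the limits at 6 h. Control arrays read 9.02, 8.46, 9.0 and 8.47 log2 signal and Ang II arrays 9.20, 9.01, 9.35 and 8.98. Ang II was higher on every slide, by 0.18, 0.55, 0.36 and 0.50. In the fit the log2 fold change was 0.40 ± 0.09 (adjusted p = 0.0809, 1.32-fold). At 3 h it was 0.20 ± 0.30 (adjusted p = 0.791), with a difference below 0 on the slide of replicate 1.

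**Figure D2:**
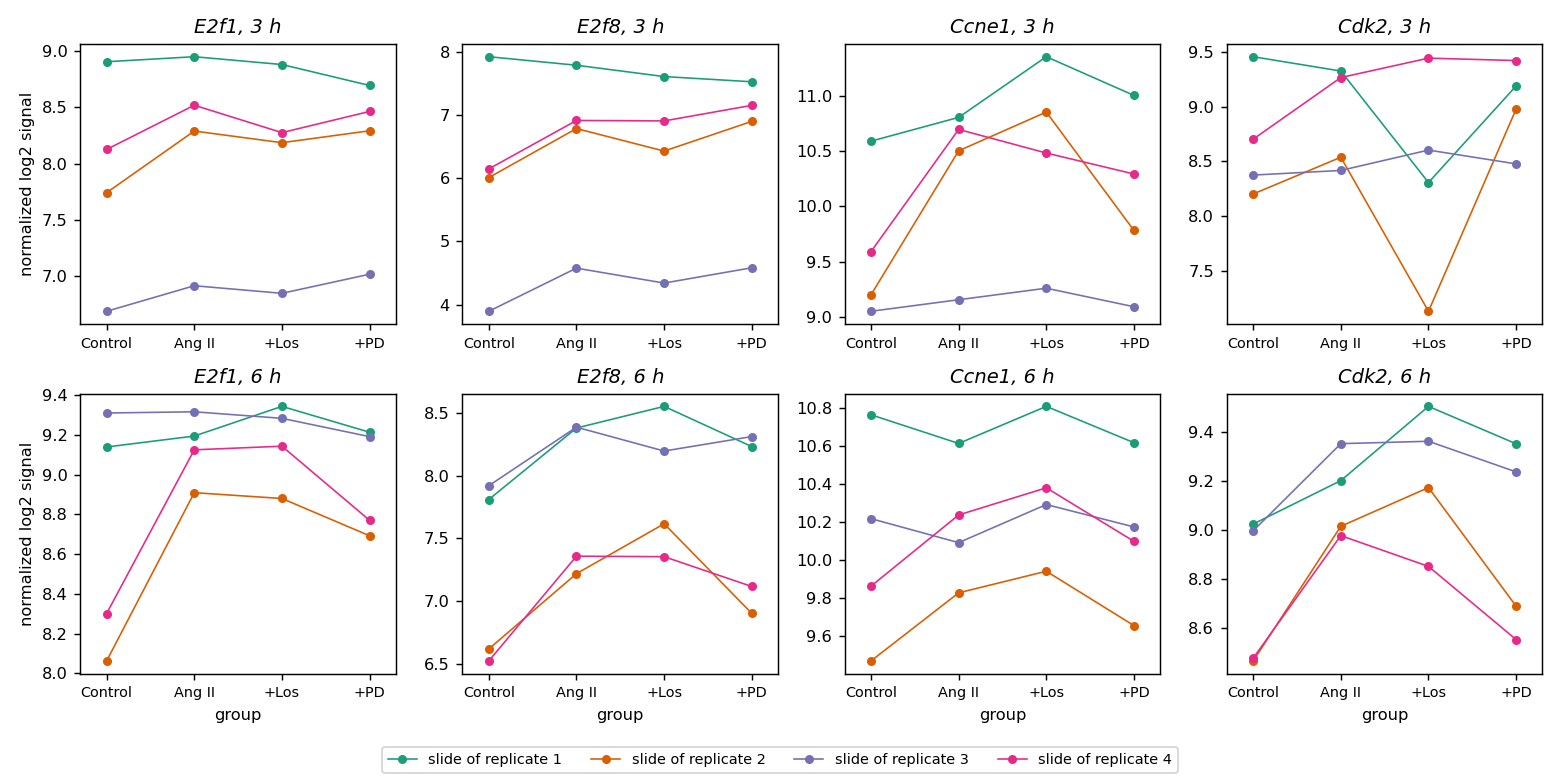
Normalized log2 signal (y axis) of E2f1, E2f8, Ccne1 and Cdk2 in the 4 groups (x axis) at 3 h (top) and 6 h (bottom), with 1 line per slide. Lines rather than points carry the comparison: E2f8 of Control at 3 h runs from 3.89 to 7.93 across slides, and at 6 h each of the 4 E2f8 lines rises from Control to Ang II.

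The file headers give 4 scan dates. Within the 2 scan dates of 3 h the mean difference of Ang II and Control was 0.76 and 0.61 for Ccne1, 0.30 and 0.31 for E2f1, and 0.32 and 0.73 for E2f8. Within the 2 scan dates of 6 h, of 3 slides and 1 slide, it was 0.55 and 0.84 for E2f8, 0.36 and 0.50 for Cdk2, 0.30 and 0.82 for E2f1, and 0.32 and 1.07 for Ccne2. The direction was the same on both dates for each of these. They were listed because they passed over the same slides, so a shared direction is not separate support.

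Ang II+Los x Ang II asks what changed when the AT1 receptor was blocked. It shares its Ang II arrays with Ang II x Control, so an Ang II reading high by error raises that comparison and lowers this one. Of the members, Cdk4 at 3 h passed the limits, lower, and none did at 6 h. The share was 1 of 7 at 3 h beside 10.2% of all genes, and 0 of 9 at 6 h beside 0.912% of all genes. By limma 0 members had an unadjusted p under 0.05 at 6 h either, beside 331 of 16446 genes. Cdk4 read 12.04, 11.86, 11.52 and 11.61 log2 signal in Ang II and 11.86, 10.69, 11.16 and 11.51 in Ang II+Los. It was lower on every slide, by 0.10 to 1.17, and the log2 fold change was -0.45 ± 0.17 (adjusted p = 0.425). It was -0.21 and not past the limits without the slide of replicate 2, where Ang II was the brightest array, and -0.48 and not past them without that of replicate 3. On the slide of replicate 2 Ccnd1 was 1.53 lower and Cdk2 1.41 lower in Ang II+Los. On that of replicate 1 they were 0.63 and 1.02 lower, and on the slides of replicates 3 and 4 both were 0.02 to 0.19 higher. The slides of replicates 1 and 2 bear 1 scan date and those of replicates 3 and 4 another. For Ccnd1 and Cdk2 the direction turned with the scan date, and the part of the date in it was not tested. Their log2 fold changes, -0.51 ± 0.24 and -0.52 ± 0.30, were not past the limits (adjusted p = 0.425 and 0.440).

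With Losartan, 6 of the 7 members tested at 3 h had fitted values below 0 against Ang II alone, with a median log2 fold change of -0.20 beside 0.0032 for all genes. E2f1 (-0.12 ± 0.12) and E2f8 (-0.20 ± 0.19) were lower on 4 of 4 slides at 3 h, neither past the limits (adjusted p = 0.598 and 0.594), and Ccne1 gave 0.20 ± 0.21. At 6 h 5 of 9 members were above 0. Compared with Ang II alone at that time, the value was 0.03 ± 0.14 for E2f1 (95% interval -0.29 to 0.34), 0.09 ± 0.11 for E2f8 (-0.15 to 0.34), 0.09 ± 0.09 for Cdk2 (-0.11 to 0.28), 0.14 ± 0.20 for Ccne2 (-0.30 to 0.59) and 0.16 ± 0.09 for Ccne1 (-0.04 to 0.37). Ccne1 and Ccne2 were higher on 4 of 4 slides at 6 h, neither past the limits. The paper lists Ccne1 among its differentially expressed genes in this comparison, by t-tests at p under 0.05. The interval of E2f8 does not reach down to a loss of 0.62, its fitted rise with Ang II (SE 0.11). Nor does its interval with PD123319 at 6 h (-0.44 to 0.05), so this does not set the antagonists apart. That rise and both intervals share the Ang II arrays. The other 4 members, Ccnd1, Cdk4, E2f3 and E2f7, had values from -0.10 to -0.03.

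Against Control on the same slides, Ang II+Los gave 1 of 7 members past the limits at 3 h, beside 20.0% of all genes, and 5 of 9 at 6 h, beside 11.5%, all of them higher. This comparison shares its Control arrays with Ang II x Control. At 3 h Ccne1 was 0.88 ± 0.21 higher on the log2 scale (adjusted p = 0.177), with differences of 0.77, 1.66, 0.21 and 0.89. At 6 h E2f8 was 0.71 ± 0.11 higher (adjusted p = 0.0352) and Cdk2 0.48 ± 0.09 higher (adjusted p = 0.0381), on 4 of 4 slides each. These were the only member values in any comparison with an adjusted p under 0.05 by limma. In that comparison 224 of all 16446 genes had such a value, and 228 did in Ang II+PD123319 x Control at 6 h. Over the alternatives tried the adjusted p ran from 0.0253 to 0.999 for E2f8 and from 0.0285 to 0.999 for Cdk2. The highest came from the fit without the slide as a block. Ccne2, E2f1 and Ccne1 were also past the limits, at 0.65 ± 0.20, 0.46 ± 0.14 and 0.28 ± 0.09 (adjusted p = 0.102, 0.102 and 0.118). E2f7 was 0.18 ± 0.08 lower, an unadjusted p of 0.0389 with a fold change of 0.884 that did not reach the limit. Without the slides of replicates 1 to 4 in turn the 6 h count was 2 to 6, with 2 without that of replicate 2 and 2 without that of replicate 4. Of all genes, 14.4%, 6.96%, 16.8% and 8.86% passed without the slides of replicates 1 to 4.

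Ang II+PD123319 x Ang II asks what changed when the AT2 receptor was blocked. It also shares its Ang II arrays with Ang II x Control, with the same limit. No member passed the limits at either time, with 0 of 7 beside 2.66% of all genes at 3 h and 0 of 9 beside 3.79% at 6 h. By limma 0 members had an unadjusted p under 0.05, beside 410 of 13630 genes at 3 h and 1049 of 16446 at 6 h. At 6 h all 9 fitted values were below 0, with a median log2 fold change of -0.12 beside -0.0037 for all genes. Ccne2 gave -0.28 ± 0.20, E2f8 -0.20 ± 0.11, Cdk2 -0.18 ± 0.09, E2f1 -0.17 ± 0.14 and E2f3 -0.12 ± 0.08 (adjusted p from 0.822 to 0.894). E2f8, Ccne2 and E2f3 were lower on 4 of 4 slides. At 3 h the values were of either sign, from -0.25 ± 0.21 for Ccne1 to 0.13 ± 0.30 for Cdk2.

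Against Control, Ang II+PD123319 gave 1 of 7 members past the limits at 3 h, beside 6.06% of all genes, and 1 of 9 at 6 h, beside 13.5%. It was E2f8 both times, higher by 0.55 ± 0.19 at 3 h and 0.42 ± 0.11 at 6 h on the log2 scale (adjusted p = 0.547 and 0.0715). At 3 h the slide differences were -0.40, 0.89, 0.69 and 1.01. Under the stricter filter, which leaves out E2f8 at 3 h, 0 of 6 members passed there, beside 5.98% of genes. Without the slide of replicate 2, 3 or 4 the 3 h value was 0.43, 0.50 and 0.39, not past the limits, and without that of replicate 1 it was 0.86. At 6 h E2f8 was higher on 4 of 4 slides, by 0.42, 0.28, 0.39 and 0.59. With the normexp correction it was 0.19 at 3 h and 0.23 at 6 h, not past the limits. Side by side, the 6 h log2 fold change against Control was 0.62, 0.71 and 0.42 for E2f8 with Ang II, Ang II+Los and Ang II+PD123319, 0.43, 0.46 and 0.26 for E2f1, 0.51, 0.65 and 0.23 for Ccne2, and 0.40, 0.48 and 0.22 for Cdk2. These 4 genes are shown because they passed in Ang II x Control at 6 h, which can place their Ang II values high by selection. For each of them the lowest of the 3 values was that with PD123319, but its difference from Ang II alone did not pass the limits, as given above.

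**Figure D3:**
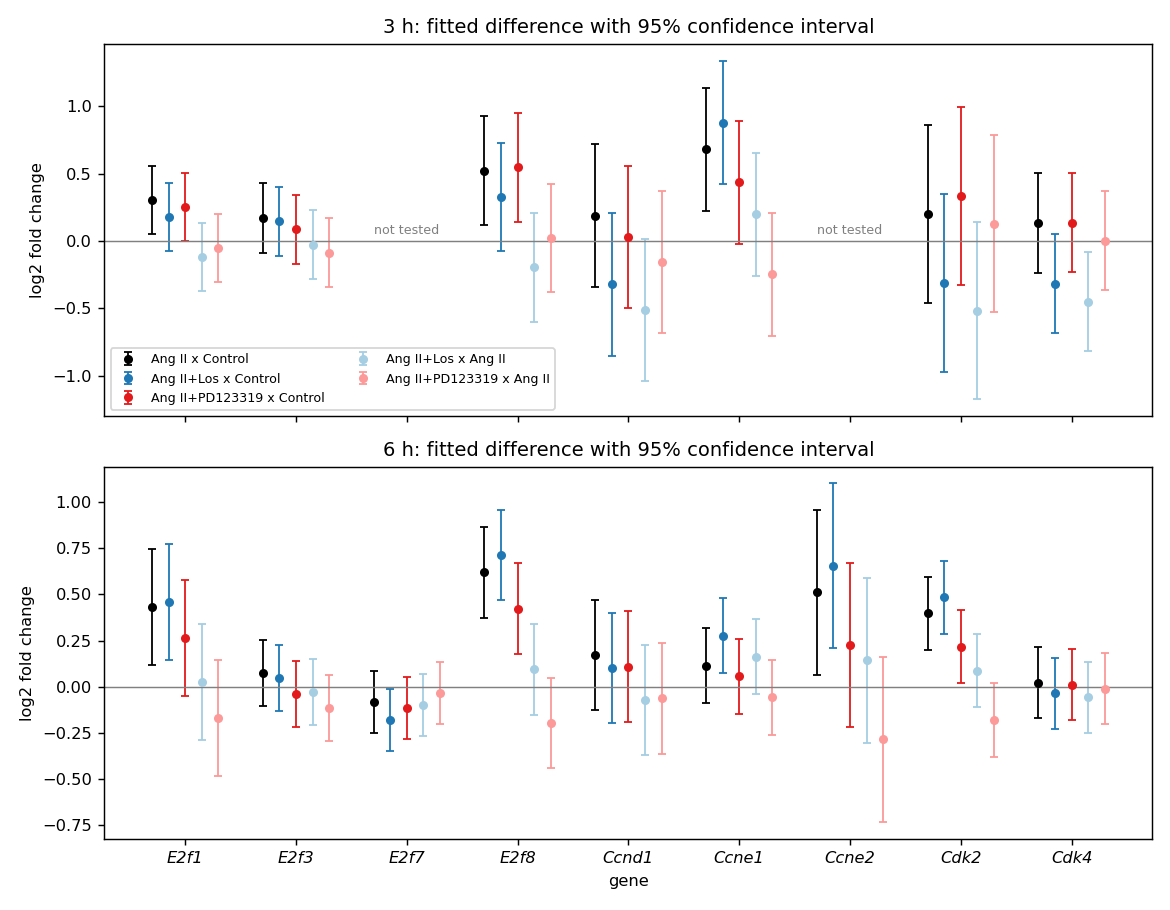
Fitted log2 fold change with its 95% confidence interval (y axis) of each gene (x axis) in 5 comparisons at 3 h (top) and 6 h (bottom). E2f8 and Cdk2 at 6 h lie above 0 in all 3 comparisons with Control, and the intervals of both antagonist x Ang II comparisons hold 0 for all 9 genes at 6 h.

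Whether a change differed between 6 h and 3 h was tested for the 7 members measured at both times, in 5 comparisons. None of the 35 differences had an adjusted p under 0.05 by limma, the lowest being 0.190, and 3 had an unadjusted p under 0.05. Of these, Ccne1 was 0.57 ± 0.24 smaller at 6 h than at 3 h in Ang II x Control (adjusted p = 0.670) and 0.60 ± 0.24 smaller in Ang II+Los x Control (adjusted p = 0.190), and Cdk2 was 0.80 ± 0.33 larger in Ang II+Los x Control (adjusted p = 0.208). For E2f1 and E2f8 the change in Ang II x Control differed by 0.13 ± 0.18 and 0.10 ± 0.22 between the times.

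Genes that E2F factors are known to control were examined as a list of 44 replication genes, of which 42 were found on the array. The list was chosen with earlier results of these data known, so its counts are not separate support. In Ang II x Control 14 of the 40 tested were past the limits at 3 h and 23 of 41 at 6 h, all higher, beside the 11.0% and 11.4% of all genes given above. The list had a median of 0.33 log2 units at 3 h and 0.36 at 6 h, and 39 of 40 and 40 of 41 values were above 0. The exception at both times was Usp1, a deubiquitinase, at -0.08 and -0.20. The counts were 19, 9, 15 and 7 at 3 h and 27, 8, 27 and 7 at 6 h without the slides of replicates 1 to 4 in turn, and 0 and 2 without the slide as a block. The shares of all genes in these fits are those given above beside the member counts. None of these genes had an adjusted p under 0.05. The filter keeps a gene on the strength of 1 group, so dim genes of the list can enter through groups where they are high. At 3 h Cdt1, Pola1, Pola2 and Uhrf1 were well above background on at most 13 of 16 arrays. Gins2 and Rrm1 were so on at most 14, and Pole on 15. The list was not recounted under the stricter filter.

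The 27 target genes past the limits at either time include the helicase that opens replication origins. Its subunit Mcm2 was higher by 0.59 ± 0.12 at 3 h and 0.49 ± 0.17 at 6 h on the log2 scale, Mcm6 by 0.72 ± 0.20 and 0.57 ± 0.18, and Mcm5 by 0.38 ± 0.11 and 0.54 ± 0.18, while Mcm4 passed at 6 h only (0.10 ± 0.29 and 0.41 ± 0.08). Of the other factors that build and start the fork, Cdt1, which loads the helicase, gave 0.98 ± 0.30 and 0.52 ± 0.19, Gins2, a part of the active helicase, 0.72 ± 0.20 and 0.62 ± 0.18, Pola2, a subunit of the primase complex, 0.73 ± 0.22 and 0.69 ± 0.19, and Pole, the leading-strand polymerase, 0.32 ± 0.15 and 0.65 ± 0.17. The slide of replicate 2 gave the widest gap for Cdt1, at 2.35 at 3 h against 0.09 to 0.93 on the others. Signal at 3 h was well above background on at most 13 of 16 arrays for Cdt1 and Pola2, 14 for Gins2 and 15 for Pole. The histone chaperone Nasp passed at 3 h only (0.54 ± 0.15 and 0.23 ± 0.16). The checkpoint kinase Chek1 (0.33 ± 0.20 and 0.46 ± 0.14) and the methyltransferase Ezh2 (0.22 ± 0.14 and 0.33 ± 0.08) passed at 6 h only, as did the repair gene Brca1, tested at 6 h only, at 0.82 ± 0.19. Brca1 signal was well above background on 15 of 16 arrays at 6 h. Against Ang II alone, 6 of 40 target genes passed with Losartan at 3 h, 2 higher and 4 lower, beside 10.2% of all genes, and 0 of 41 at 6 h, beside 0.912%. With PD123319 1 of 40 passed at 3 h, beside 2.66%, and 1 of 41 at 6 h, beside 3.79%, both lower. The 6 h medians, from comparisons that share the Ang II arrays with Ang II x Control, were 0.04 with Losartan and -0.13 with PD123319. Above 0 were 25 of 41 and 2 of 41 values. Against Control, whose arrays these comparisons share with Ang II x Control, Losartan gave 18 of 40 at 3 h, 17 of them higher, beside 20.0% of all genes, and 25 of 41 at 6 h, all higher, beside 11.5%. PD123319 against Control gave 8 of 40 and 13 of 41, all higher, beside 6.06% and 13.5%.

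**Figure D4:**
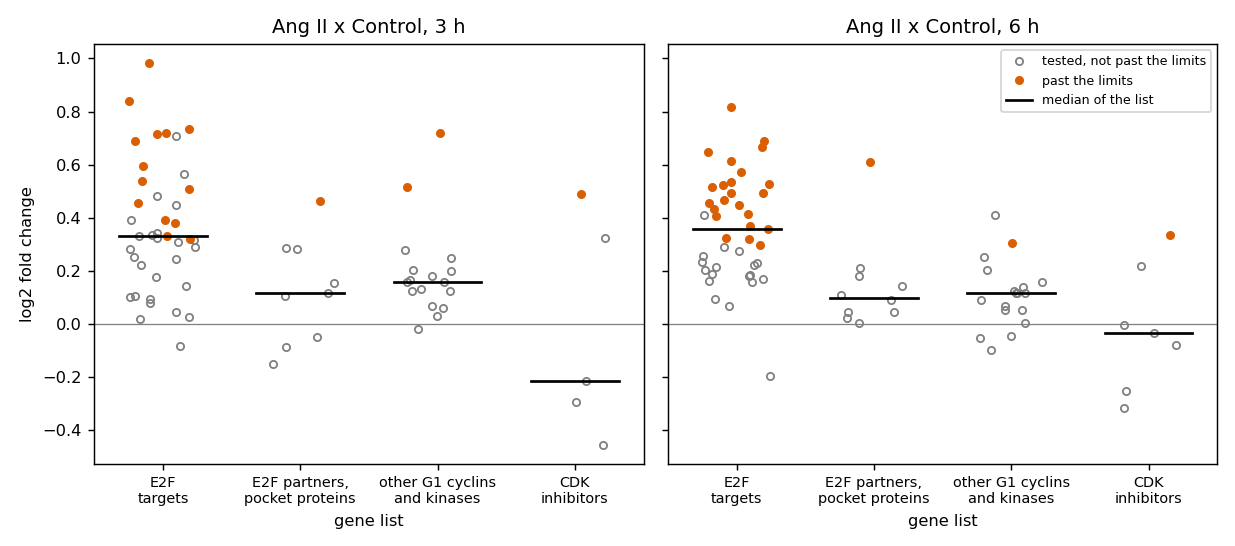
Log2 fold change of Ang II x Control (y axis) for the tested genes of 4 lists (x axis) at 3 h and 6 h, with genes past the limits filled and the median of each list as a bar. The median of the E2F target genes lies at 0.33 and 0.36, and that of the CDK inhibitors at -0.21 and -0.03.

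The other lists are to be read beside the 11.0% at 3 h and 11.4% at 6 h of all genes past the limits in Ang II x Control, and their members are named as values and not as a result of the lists. Among 14 E2F partners and pocket proteins, 1 of 9 passed at 3 h and 1 of 10 at 6 h, both higher. They were Lin54 (0.46 ± 0.18 at 3 h, 0.02 ± 0.08 at 6 h) and Lin9 (0.61 ± 0.11 at 6 h, too dim to test at 3 h), subunits of the complex that binds E2F4 and B-Myb. Among 20 other G1 cyclins, kinases and activators, 2 of 17 passed at 3 h and 1 of 18 at 6 h. Skp2, which marks the inhibitor p27 for degradation, was higher at both times (0.52 ± 0.19 and 0.31 ± 0.09), and Wee1, an inhibitory kinase of Cdk1 and Cdk2, at 3 h (0.72 ± 0.27 and 0.16 ± 0.07). Among 8 CDK inhibitors, 1 of 5 passed at 3 h and 1 of 7 at 6 h, both higher: Cdkn2d (0.49 ± 0.22 and 0.22 ± 0.11) and Cdkn2c (0.32 ± 0.23 and 0.34 ± 0.10), inhibitors of the cyclin D kinases that are themselves known E2F targets. The inhibitors p21 and p27, encoded by Cdkn1a and Cdkn1b, gave -0.21 ± 0.20 and -0.29 ± 0.25 at 3 h, neither past the limits. Of the marker lists for cells a culture should lack, 2 of 4 neuronal, 2 of 4 microglial and 1 of 3 endothelial genes were tested at 3 h, and 0 of them passed in Ang II x Control at that time. At 6 h 1 of 2 neuronal genes passed, lower, and 0 of 3 microglial and 0 of 1 endothelial genes.

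Promoter sequence was examined for 3 forms of the E2F site, TTTCCCGC, TTTGGCGC and TTTCGCGC, on both strands, from 250 bases before to 50 after the start of the gene (RefSeq, GRCr8). Of the members, Ccne1, Cdk2, Cdk4, E2f3 and E2f7 had an entry. E2f3 held a match, 1 of 5 members, beside 1.72% of the 33469 promoters in the table. Of the 37 promoters of 35 target genes with an entry, 20 held at least 1 form, or 54.1%. No match says only that these letters do not occur in that window. The windows below, 5′ to 3′ along the gene, are shown for E2f3 and for 4 of the target genes named above, with all matched letters in capitals. Matches on opposite strands overlap in Mcm2, Mcm5 and Mcm6.
E2f3, chr17:34810328-34810355, plus strand: tgaaaagccgGCGGGAAAtctgagtttc
Mcm2, chr4:122918095-122918118, minus strand: gtgacccggtTTTCGCGCGAAAac
Mcm5, chr19:13488590-13488617, plus strand: agctcagaagTTTCGCGCCAAAacgtcc
Mcm6, chr13:42404474-42404501, minus strand: ggcgtctgctTTTGGCGCGAAAttagcg
Chek1, chr8:44629854-44629881, minus strand: gcaggttttgGCGGGAAAagctgtgcac
The E2f3 match stands 78 bases before the start, and E2f3 itself did not pass the limits in any comparison. A match is a run of letters, and binding was not measured.

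Finally the members were set against each other by their deviations from the slide mean over the 32 arrays, as a description, since arrays of a slide share their mean. Over both times the highest Pearson's r between members was that of E2f1 and E2f8 (0.81, with 0.87 at 3 h and 0.80 at 6 h). Within a time other pairs were as high or higher: Ccnd1 and Cdk2 at 3 h (0.87), and at 6 h E2f8 and Cdk2 (0.90) and E2f1 and Ccne1 (0.87). Cdk4 was not tied to E2f1 at either time (r = 0.05 and -0.25). Over 13335 genes, those most like E2f1 were Melk (r = 0.91), a kinase expressed in dividing cells, and Prex1 (r = 0.89). Those most like E2f8 were Tbk1 and Mad2l1bp (0.87 and 0.85), those most like E2f3 Smad7 and Hipk3 (0.82 and 0.80), and those most like Cdk2 Cpsf2 and RGD1311066 (both 0.92). For Ccne1 and Ccnd1 the named gene in the closest pair was Fubp1 (0.94) and Hnrnph2 (0.92), and for Cdk4 the closest pair were an unnamed transcript and an unnamed probe (0.95 and 0.94).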

How the data were processed

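C6 cells were profiled on 32 one-colour Agilent rat arrays. The authors scanned them with Agilent Feature Extraction, version 9.5.3.1 per the labels, and deposited spot intensity values per array, background-subtracted and not scaled between arrays. Per the file headers the 3 h arrays took 2.6 and the 6 h arrays 13 SDs as the mark of a spot well above background. The value table the authors deposited holds log2 of the same signal, equal for all 561803 values compared (tolerance 1e-06), with 38.2% blank. 

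Here log2 signals were used, with the signal's error in place of spots not above background. Outlier spots were dropped, spots of a probe averaged, and the 16 arrays of a time normalized by cyclic loess (span 0.7, 3 iterations). Probes well above background on all 4 arrays of a group were kept, with at most 2 gaps, and averaged per gene. limma fitted group with the slide as a block, over all genes. Tests used limma 3.58.1 under R 4.3.3, checked on simulated data with known changes. Arrays limit precision by their number.

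The replicate number is the slide: deviations from group means of arrays with the same number correlated at 0.15 to 0.92 at 3 h and 0.55 to 0.83 at 6 h. Alternatives were the methods' t-test (run on slide pairs, which the methods do not state), no block, 75th percentile scaling, quantile normalization, normexp, other filters, the brightest probe, the deposited table, and leaving out each slide. The series record does name paired t-tests. The members and lists were chosen with earlier results of these data known. From the lists, genes past the limits in Ang II x Control were named, up to 12 a list by p, and Cdkn1a, Cdkn1b and Usp1 were named after their values were seen. Older array names were matched through RefSeq.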

Additional observations from a re-analysis of the deposited data

Results flagged for a closer look

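In 3 of 64 sets of 4 arrays, 1 array stood apart from the other 3 in a member's level by Dixon's test, where chance alone gives about 1 in 20. Cdk4 in Ang II+Los replicate 1 at 6 h read 12.34 log2 signal, above 11.67 to 11.76 in the other 3. E2f3 in Ang II replicate 4 at 3 h read 7.05, above 6.28 to 6.40. E2f7 in Ang II replicate 4 at 6 h read 4.50, below 5.09 to 5.10, on a slide where all 4 groups read low for E2f7 (4.41 to 4.55). None of these genes passed the limits in the comparison of Ang II and Control at that time.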

How the results depend on the processing

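Of 1025 recomputed member values, 936 kept their direction and side of the limits or moved by less than their SE, 54 were no longer past the limits, 13 became so, 22 moved by more than their SE and 0 past the limits turned their sign, while 40 values not past them did. Below, counts are of members past the limits. Without the slide as a replicate block, Ang II against Control gave 0 (3 h) and 0 (6 h), Losartan against Ang II alone 0 (3 h), Losartan against Control 0 (3 h) and 1 (6 h), and PD123319 against Control 0 and 0. The E2F target genes then numbered 0 and 2. These alternatives for target genes, and those without each slide, were chosen after seeing the data. With the methods' t-test on slide pairs the 3 h count was 0 for Ang II, Losartan and PD123319 against Control and 0 for Losartan against Ang II alone, and the 6 h count against Control was 2 for Ang II and 2 for Losartan. The shares of all genes were 4.84%, 2.44%, 3.82% and 0.998% at 3 h, and 4.46% and 3.68% at 6 h, in that order. Quantile normalization gave 2 for Losartan at 3 h, both against Ang II alone and against Control, beside 9.75% and 19.4% of all genes. The 2 against Ang II alone and 1 of the 2 against Control were lower. Normexp gave 1, 2 and 0 at 3 h for Ang II, Losartan and PD123319 against Control, and 0 for PD123319 at 6 h. For Losartan 1 of the 2 was lower. All-gene shares were then 6.41%, 14.8% and 4.01% at 3 h, and 5.99% for PD123319 at 6 h. For PD123319 against Control the stricter filter, which leaves out E2f8 at 3 h, gave 0 (3 h), and the deposited table, where the E2f8 probe is blank on 13 of 32 arrays, gave 0 (3 h) and 0 (6 h). With no filter, which adds Ccne2 and E2f7 at 3 h, counts against Control were 5 for Ang II, 3 for Losartan and 2 for PD123319. They stand beside 7.49%, 11.5% and 5.71% of all genes. E2f7, near background, was the 1 lower gene among the 5 and among the 3, at -0.74 and -0.58. Leaving out each slide in turn gave 0 to 3 (3 h) and 2 to 5 (6 h) for Ang II, 1 to 2 and 2 to 6 for Losartan, and 0 to 2 and 1 to 2 for PD123319 against Control, 0 to 3 for Losartan against Ang II alone at 3 h, and 7 to 19 and 7 to 27 E2F target genes. Where no reason is given, the cause was not tested. With 75th percentile scaling and with the brightest probe of a gene every count stayed within 1.5 times. The count of differences between 6 h and 3 h with an adjusted p under 0.05 was 0 under each alternative run for it. Signal over background limits the members Ccne2, E2f7 and E2f8 at 3 h. It also limits the target genes Cdt1, Pola1, Pola2, Uhrf1, Gins2, Rrm1 and Pole at 3 h and Brca1 at 6 h.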
